A study of Homo sapiens with 6 samples.

Results

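The 9 genes described here encode enzymes of the pentose phosphate pathway (PGLS, PGD, RPIA, RPE, TKT and TALDO1) and of the synthesis of pyrimidine nucleotides (CAD, DHODH and UMPS). They were taken by gene symbol from 18417 genes measured on 6 microarrays, and each was represented by a single probe set, so all 9 were tested. The RNA came from Du145, a human prostate carcinoma line, grown in high-glucose medium under 1% oxygen; the series' design gives 24 h of hypoxia after the knockdown or control treatment. The 3 groups held 2 arrays each: shTSC2-adapted cells, labelled as adapted from the knockdown, shTSC2 cells, and control cells. Both TSC2-targeted groups were infected with a lentivirus against TSC2, and all groups shared the hypoxia and the medium. Neither the nature of the adaptation nor any virus given to the control cells is stated. Separate cultures for the arrays of a group are not stated either, so p-values reflect array-to-array spread alone, and this spread may be technical.

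The pentose phosphate pathway branches from glycolysis. Its oxidative branch makes NADPH, which cells use for lipid synthesis and against oxidative stress, and its non-oxidative branch makes ribose phosphate for nucleotides and exchanges sugar phosphates with glycolysis. De novo pyrimidine synthesis builds a ring from glutamine, bicarbonate and aspartate and joins it to a ribose phosphate to give UMP, the precursor of all pyrimidine nucleotides. TSC2 restrains the kinase complex mTORC1, which is known from other systems to raise transcripts of the oxidative pentose phosphate branch through SREBP factors and to activate the CAD protein through S6 kinase phosphorylation. The arrays measure transcripts of bulk RNA, so fewer cells that make a transcript and less transcript per cell cannot be told apart, and enzyme activity and phosphorylation were not measured.

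The targeted gene was low in both knockdown groups. The log2 intensity of TSC2 was 6.54 and 6.48 in shTSC2-adapted, 6.67 and 6.55 in shTSC2, and 7.52 and 7.59 in control. Its mean was 48.5% of control in shTSC2-adapted and 51.9% of control in shTSC2 (limma adjusted p = 0.0241 and 0.00102). The first of these TSC2 calls ended with a replicate block by array number (0.0515). It also ended when either control array or either shTSC2-adapted array was left out. The difference was then -1.08 without control 1, -1.01 without control 2, -1.075 without shTSC2-adapted 1 and -1.015 without shTSC2-adapted 2. Such fits leave 1 array in a group, so a call can end, here and below, though its difference hardly moves. All 6 listed epithelial markers were measured, and the keratins KRT8 and KRT18 lay between 11.22 and 11.50 on the log2 scale on every array. In shTSC2 relative to control, KRT19 (-1.38) and EPCAM (-1.28) fell and KRT7 (0.44) rose. KRT19 (1.55), EPCAM (1.64) and CDH1 (1.54) were higher in shTSC2-adapted than in shTSC2 and passed. Of the 5 measured blood cell markers none passed in limma in any comparison. PTPRC (3.49 to 3.58) and LYZ (3.44 to 3.65) lay under every array's lower quartile of probe sets, while CD14 (5.76 to 6.10), CD3E (4.78 to 5.02) and CD3D (4.54 to 4.81) lay above it. Their summed intensity was 131 to 136 in shTSC2-adapted, 143 to 150 in shTSC2 and 129 to 134 in control. The 5 measured markers of embryonic kidney lines, of the kind used to package lentivirus, had a summed intensity of 360 to 506 in shTSC2-adapted, 397 to 466 in shTSC2 and 301 to 323 in control, and 2 of the 5 (PAX2 and NEFM) rose in shTSC2 relative to control. LHX1 (0.07), NEFL (0.41) and LIN28B (0.21) did not pass in shTSC2 relative to control. LIN28B (3.31 to 3.61) lay under every array's lower quartile of probe sets. The part of these marker differences in the results below was not tested.

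In shTSC2 cells RPIA rose and TKT and TALDO1 fell, while RPE, PGLS, PGD and the 3 pyrimidine synthesis enzymes did not pass the test. Of all genes, 20.8% passed in this comparison. In shTSC2-adapted cells none of the 9 enzymes passed against control, where only 0.261% of all genes did. Set directly against shTSC2, shTSC2-adapted cells had lower RPIA and higher TKT, where 12.5% of all genes passed. The promoters of these 3 genes are shown because the gene that rose and the pair that fell act in the same branch. Each line gives the 250 bases before the annotated start on the gene's strand, from RefSeq on GRCh38.p14, with capitals for matches to CCAAT boxes (CCAAT or ATTGG) and GC boxes (GGGCGG or CCGCCC).
RPIA, chr2:88691423-88691672, plus strand: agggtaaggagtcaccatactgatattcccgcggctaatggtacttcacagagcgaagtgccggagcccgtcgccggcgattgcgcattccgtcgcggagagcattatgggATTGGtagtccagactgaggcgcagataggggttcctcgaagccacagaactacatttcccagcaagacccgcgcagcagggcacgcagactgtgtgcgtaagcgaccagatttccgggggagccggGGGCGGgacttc
TKT, chr3:53256023-53256272, minus strand: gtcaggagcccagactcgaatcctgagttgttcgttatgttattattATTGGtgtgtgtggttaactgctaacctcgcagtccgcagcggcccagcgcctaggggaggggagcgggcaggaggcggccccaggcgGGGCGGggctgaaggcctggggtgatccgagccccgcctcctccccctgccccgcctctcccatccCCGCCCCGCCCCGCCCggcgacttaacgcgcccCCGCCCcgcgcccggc
TALDO1, chr11:747214-747463, plus strand: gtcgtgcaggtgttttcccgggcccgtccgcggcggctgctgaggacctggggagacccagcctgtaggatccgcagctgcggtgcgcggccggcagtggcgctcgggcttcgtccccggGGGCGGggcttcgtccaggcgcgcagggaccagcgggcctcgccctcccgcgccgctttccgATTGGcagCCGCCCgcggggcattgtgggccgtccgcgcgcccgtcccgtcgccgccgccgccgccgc

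The sequence before RPIA, which rose, held 1 GC box and 1 CCAAT box match. The sequence before TKT held 5 GC box matches, some of which share bases, and 1 CCAAT box match, and that before TALDO1 held 2 and 1. Over all 9 enzymes, 7 had a GC box match and 7 a CCAAT box match. Among 35116 RefSeq promoters of the same length, 42.6% had a GC box match and 32% a CCAAT box match. Both strands were searched, and matches of different motifs could overlap.

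Motifs of factors known to act on metabolic genes were fewer. The E-box CACGTG, bound by MYC and related factors, was found before DHODH, which catalyses the oxidation step of pyrimidine synthesis, and before no other of the 9 enzymes, against 6.34% of all promoters. The antioxidant response element TGACNNNGC, the motif of NRF2, was found before PGD and RPE, against 10.9% of all promoters. The sterol response element TCACNCCAC, a motif of SREBP factors, was found before none of the 9, against 0.883% of all promoters. A match describes letters in this window and no binding was measured.

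**Figure D1:**
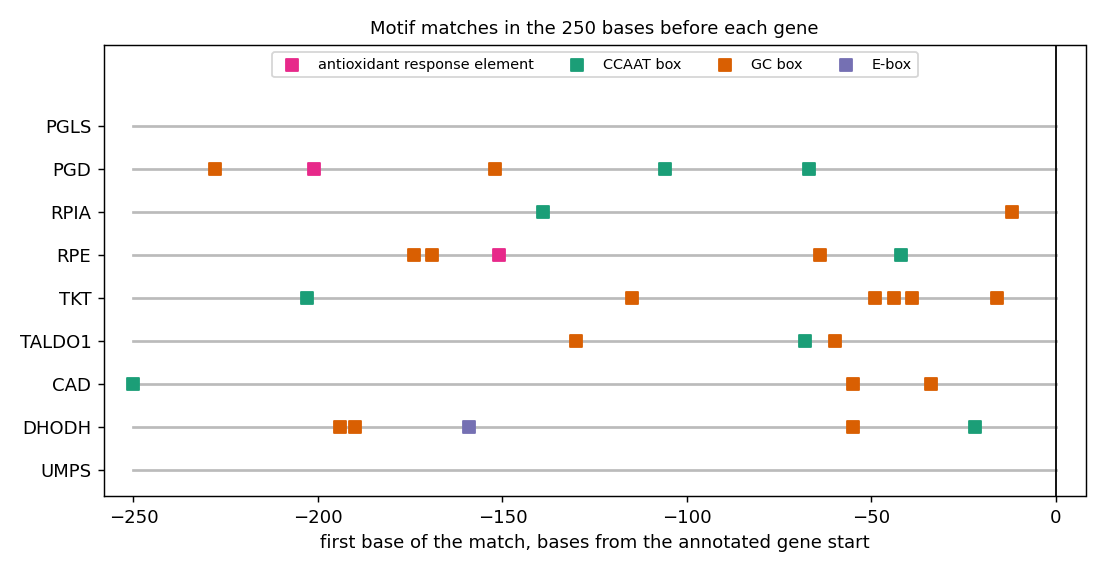
Positions of motif matches in the 250 bases before each of the 9 enzyme genes, as the first base of the match in bases from the annotated gene start (x axis), coloured by motif. GC boxes and CCAAT boxes occur before 7 of the 9 genes each, PGLS and UMPS have no match, and RPIA, TKT and TALDO1 have only these 2 motifs.

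The first comparison asked how the enzymes' transcripts differ between shTSC2 and control cells under hypoxia. RPIA, the isomerase that makes ribose 5-phosphate, rose by 0.55 on the log2 scale, or 1.46-fold, whereas the carbon-exchanging enzymes TKT (transketolase) and TALDO1 (transaldolase) fell to 75.8% and 75% of the control level. The other 6 enzymes did not pass. Of the 9, 1 rose and 2 fell, where 20.8% of all genes passed in either direction, 6.87% higher and 13.9% lower (limma, adjusted p under 0.05 over 18417 genes). Those were 1266 genes higher and 2567 lower, a split that became 1891 and 2111 with quantile normalization, 1802 and 2257 with median centring, and 869 and 2962 with each array centred on the median of all probe sets. The median difference over the 9 was -0.18, against 0.025 over all genes tested. The arrays of shTSC2 and control did not overlap for 7 of the 9 enzymes, which was also the case for 62% of all genes.

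RPIA converts ribulose 5-phosphate to ribose 5-phosphate. Its log2 intensity was 8.08 and 8.40 on the shTSC2 arrays, against 7.66 and 7.72 on the control arrays. Both shTSC2 arrays were above both control arrays. The rise of 0.55 had a 95% interval of 0.23 to 0.87 (SE 0.14, n = 2 per group, limma adjusted p = 0.0268). Of all 18417 genes, 96.1% had a lower difference. The call of RPIA ended without control 1 (adjusted p = 0.164), control 2 (0.135) or shTSC2 2 (0.0779), and with each array centred on the median of all probe sets (0.0549), over a range of 0.0109 to 0.164 for the alternatives.

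RPE acts on the same substrate as RPIA and makes xylulose 5-phosphate. It stood at 7.92 and 7.48 on the shTSC2 arrays, against 8.30 and 8.43 on the control arrays. Both shTSC2 arrays were lower but differed from each other more than the control arrays did, and the difference of -0.67 (95% interval -1.22 to -0.11, SE 0.24) did not pass in limma (adjusted p = 0.0942). RPE had the largest SE of the 9 in this comparison. It passed with only the 4 arrays of the comparison (adjusted p = 0.038) and with each array centred on the median of all probe sets (0.022). Leaving out either shTSC2-adapted array gave the same test as the 4 arrays, not a further one. The range of its adjusted p over the alternatives was 0.022 to 0.354. RPEL1, a closely related retrocopy of RPE on another chromosome, was dim at 5.43 and 5.17 in shTSC2, against 5.54 and 5.61 in control, and did not pass (-0.27, limma adjusted p = 0.184). How far the probes of RPE and RPEL1 tell the copies apart is not given in the sources used here, so both values are uncertain in that respect.

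TKT transfers carbon units between sugar phosphates and needs thiamine pyrophosphate. It was at 9.19 and 8.99 on the shTSC2 arrays, against 9.50 and 9.48 on the control arrays. The groups did not overlap, and the fall of 0.40 (95% interval -0.64 to -0.16, SE 0.10) passed in limma (adjusted p = 0.0323). The call of TKT ended with only the 4 arrays compared (adjusted p = 0.0515) and with quantile normalization (0.066). Leaving out either shTSC2-adapted array was the same test as the 4 arrays. The call also ended without control 1, control 2 or shTSC2 2, where the difference was -0.39, -0.41 and -0.30.

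TALDO1 carries out the companion exchange and links the pathway back to glycolysis. Its values were 9.59 and 9.52 in shTSC2, against 10.04 and 9.90 in control. The shTSC2 arrays were alike and below both control arrays, with a difference of -0.42 (95% interval -0.69 to -0.14, SE 0.12, limma adjusted p = 0.042). The call of TALDO1 ended without control 1 (0.257), control 2 (0.133), shTSC2 1 (0.0641) or shTSC2 2 (0.106), with quantile normalization (0.0751), with each array centred on its median (0.0655) and with the array number as a replicate block (0.0649). Its adjusted p ranged from 0.0234 to 0.257 over the alternatives.

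Neither enzyme of the oxidative branch passed. PGLS, which hydrolyses 6-phosphogluconolactone, was at 6.61 and 7.03 in shTSC2, against 7.05 and 7.19 in control (-0.30, 95% interval -0.68 to 0.08, limma adjusted p = 0.246). PGD, which makes NADPH and ribulose 5-phosphate, was at 9.94 and 9.71 in shTSC2, against 10.05 and 9.92 in control (-0.16, 95% interval -0.43 to 0.11, adjusted p = 0.389). The PGD arrays overlapped between the groups, and the second shTSC2 array of PGLS lay just below the lower control array. Without shTSC2 1 the PGLS difference was -0.09.

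Pyrimidine synthesis showed no call and no common direction. CAD, the fused protein that carries out the opening steps from glutamine to dihydroorotate, was at 7.73 and 8.03 in shTSC2, against 7.65 and 7.45 in control. Both shTSC2 arrays of CAD were higher, and the difference of 0.33 had an interval of -0.01 to 0.67 (limma adjusted p = 0.158). DHODH, the mitochondrial dehydrogenase that passes electrons to ubiquinone, was at 6.37 and 6.33 in shTSC2, against 6.57 and 6.49 in control (-0.18, interval -0.40 to 0.04, adjusted p = 0.228). UMPS, which attaches the ring to ribose phosphate and completes UMP, was at 8.63 and 8.45 in shTSC2, against 8.58 and 8.47 in control (0.02, interval -0.23 to 0.26, adjusted p = 0.942). The intervals thus allow a CAD transcript level of 99.5% to 159% of control, a DHODH level of 75.8% to 103%, and a UMPS level of 85.2% to 120%.

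**Figure D2:**
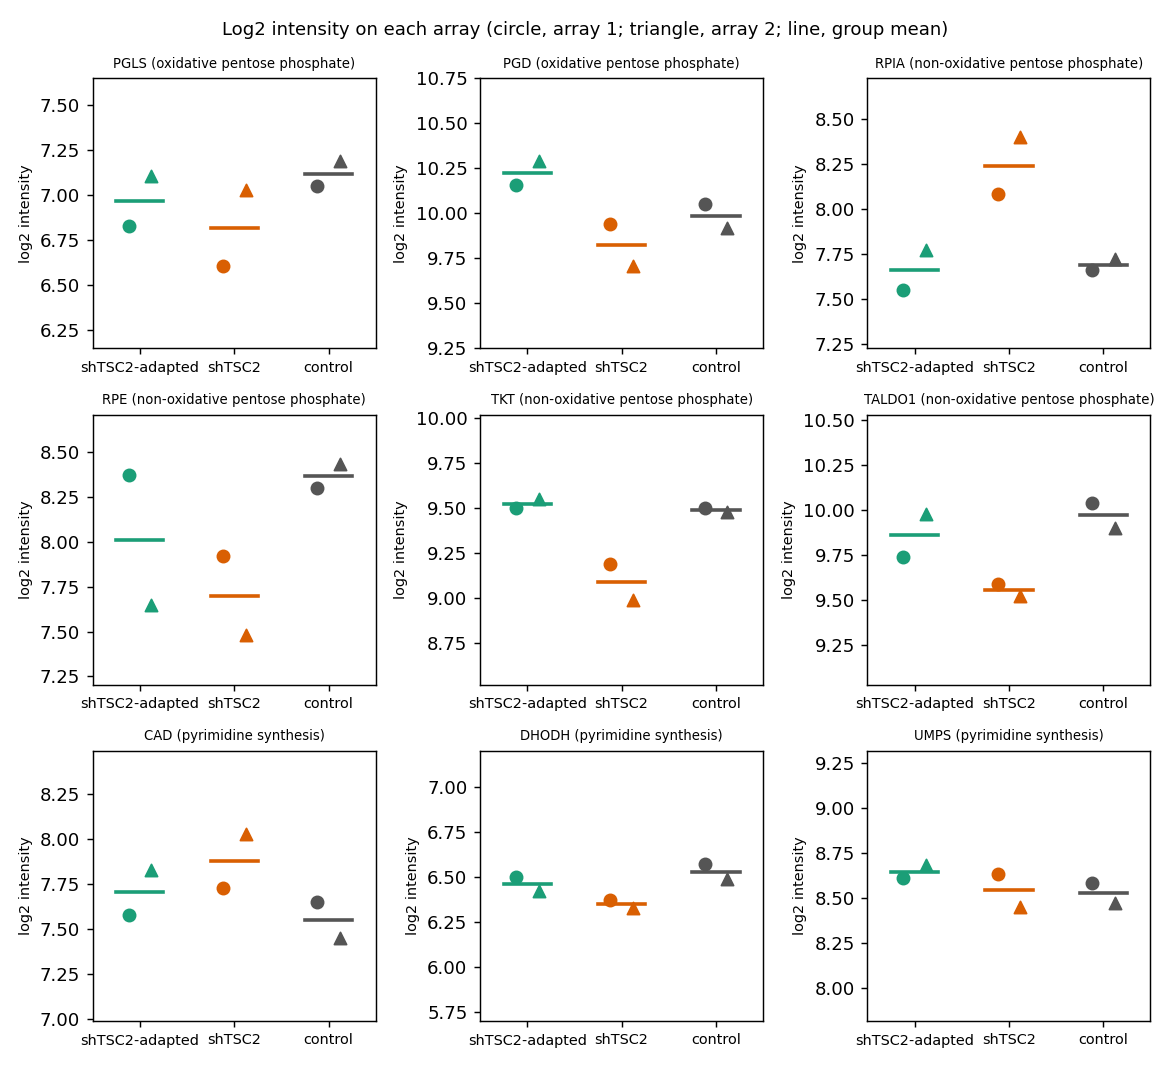
Log2 intensity (y axis, 1.5 log2 units in every panel) of each enzyme on each of the 6 arrays, by group (x axis), with circles for array 1, triangles for array 2 and a line at the group mean. The shTSC2 arrays stand above the control arrays for RPIA and below them for TKT and TALDO1, and the shTSC2-adapted arrays of RPE lie at 8.37 and 7.65.

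The second comparison set shTSC2-adapted cells against control, with TSC2 low in the first group. None of the 9 enzymes passed, where 0.261% of all genes did, 0.0543% higher and 0.206% lower (limma). At an unadjusted limma p under 0.05 the count over the 9 enzymes was also 0, where 2317 of all 18417 genes were under it. The median difference over the 9 was -0.03, against -0.005 over all genes. The arrays of the groups did not overlap for 2 enzymes, PGD and UMPS, both higher in shTSC2-adapted, where this held for 45.9% of all genes. The differences that follow carry 95% intervals because a p that misses the threshold does not show equal levels.

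PGD was at 10.16 and 10.29 on the shTSC2-adapted arrays, against 10.05 and 9.92 on the control arrays, and was the enzyme with the largest positive difference (0.24, interval -0.03 to 0.51, adjusted p = 0.474). UMPS was at 8.61 and 8.68 in shTSC2-adapted, against 8.58 and 8.47 in control (0.12, interval -0.13 to 0.37, adjusted p = 0.737). CAD was at 7.58 and 7.83, against 7.65 and 7.45 in control (0.16, interval -0.18 to 0.49). The CAD arrays overlapped.

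The 3 enzymes called in shTSC2 lay near the control level in shTSC2-adapted cells. RPIA was at 7.55 and 7.77 in shTSC2-adapted, against 7.66 and 7.72 in control, a difference of -0.03 with an interval of -0.35 to 0.29. TKT was at 9.50 and 9.55, against 9.50 and 9.48 in control, a difference of 0.04 with an interval of -0.21 to 0.28. TALDO1 was at 9.74 and 9.98, against 10.04 and 9.90 in control (-0.11, interval -0.38 to 0.16). For RPIA and TALDO1 one shTSC2-adapted array lay below both control arrays and the other within or above their range.

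RPE split the shTSC2-adapted arrays. It was at 8.37 on the first, within the control values of 8.30 and 8.43, and at 7.65 on the second, between the shTSC2 values of 7.92 and 7.48. The mean difference of -0.36 against control (interval -0.91 to 0.20, limma adjusted p = 0.629) was 0.005 without shTSC2-adapted 2 and -0.71 without shTSC2-adapted 1, neither of which passed. PGLS was at 6.83 and 7.11 in shTSC2-adapted, against 7.05 and 7.19 in control (-0.15, interval -0.53 to 0.23). DHODH was at 6.50 and 6.42, against 6.57 and 6.49 in control (-0.07, interval -0.29 to 0.15).

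The third comparison tested the difference between the knockdown groups directly. It shares the shTSC2 arrays with the first comparison, so an opposite sign in both is no independent observation. RPIA was lower in shTSC2-adapted than in shTSC2, at 66.9% of its level, and TKT was higher, at 135%. With 1 higher and 1 lower, 2 of the 9 enzymes passed, where 12.5% of all genes did, 9.25% higher and 3.24% lower (limma). Those were 1703 genes higher and 597 lower, and 1345 and 942 with quantile normalization. The median difference over the 9 was 0.15, against -0.025 over all genes. The groups did not overlap for 5 of the 9 enzymes, and for 52.1% of all genes.

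RPIA stood at 7.55 and 7.77 in shTSC2-adapted, against 8.08 and 8.40 in shTSC2. The difference was -0.58 (95% interval -0.90 to -0.26, SE 0.14, limma adjusted p = 0.0324), with both shTSC2-adapted arrays lower. TKT stood at 9.50 and 9.55 in shTSC2-adapted, against 9.19 and 8.99 in shTSC2, and both shTSC2-adapted arrays were higher (0.44, interval 0.19 to 0.68, SE 0.10, adjusted p = 0.0346). The call of RPIA ended with only the 4 arrays compared (adjusted p = 0.0836), and leaving out either control array was the same test. It also ended without shTSC2 2, shTSC2-adapted 1 or shTSC2-adapted 2, where the RPIA difference was -0.42, -0.47 and -0.69. The call of TKT ended with quantile normalization (0.0589) and with the array number as a replicate block (0.0531). With only the 4 arrays compared it ended too (0.0943), and leaving out either control array was the same test. Without shTSC2 2, shTSC2-adapted 1 or shTSC2-adapted 2 the call also ended, with a TKT difference of 0.335, 0.46 and 0.41.

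PGD, TALDO1 and DHODH were also higher on both shTSC2-adapted arrays than on both shTSC2 arrays, without passing. PGD was at 10.16 and 10.29, against 9.94 and 9.71 in shTSC2 (0.40, interval 0.13 to 0.67, limma adjusted p = 0.0684). PGD passed without shTSC2 1 (adjusted p = 0.0384) and with the trend of change with gene length removed (0.0482), over a range of 0.0384 to 0.236. TALDO1 was at 9.74 and 9.98 in shTSC2-adapted, against 9.59 and 9.52 in shTSC2 (0.31, interval 0.03 to 0.58, adjusted p = 0.139). DHODH was at 6.50 and 6.42, against 6.37 and 6.33 in shTSC2 (0.11, interval -0.11 to 0.33, adjusted p = 0.51).

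For the remaining 4 enzymes the shTSC2-adapted and shTSC2 arrays overlapped. RPE had a difference of 0.31 (interval -0.25 to 0.87), which stood at -0.05 without shTSC2-adapted 1 and 0.67 without shTSC2-adapted 2. PGLS had a difference of 0.15 (interval -0.23 to 0.53), CAD of -0.18 (interval -0.51 to 0.16) and UMPS of 0.11 (interval -0.14 to 0.35). None of these 4 passed in limma, with adjusted p-values of 0.462 to 0.612.

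**Figure D3:**
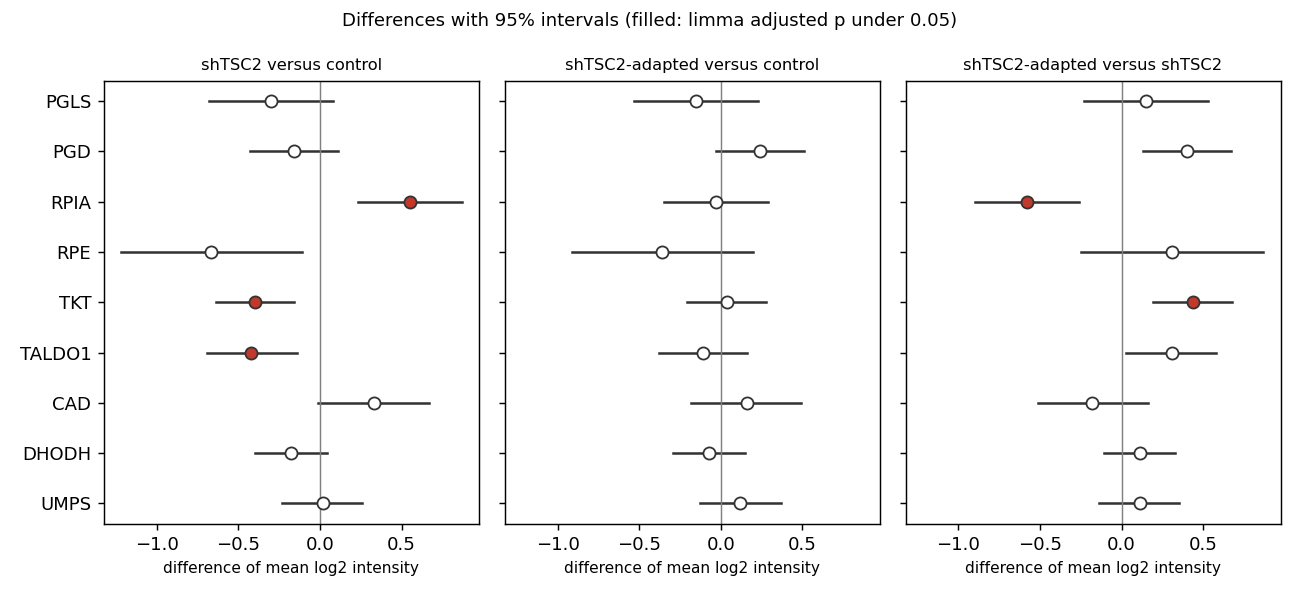
Differences of mean log2 intensity (x axis) for the 9 enzymes (rows) in the 3 comparisons, with 95% intervals from the limma fit and filled points where the adjusted p is under 0.05. RPIA (0.55), TKT (-0.40) and TALDO1 (-0.42) are filled for shTSC2 versus control, no enzyme is filled for shTSC2-adapted versus control, and RPIA (-0.58) and TKT (0.44) are filled for shTSC2-adapted versus shTSC2.

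Other genes around the same pathways were taken from lists of 67 genes, of which 62 were measured and the others not analysed here. Of 12 further pentose phosphate and PRPP genes, 1 rose and 2 fell in shTSC2 relative to control, with a median difference of -0.06, where 6.87% of all genes rose and 13.9% fell. RBKS, which phosphorylates ribose, rose by 0.42 (limma adjusted p = 0.0325). H6PD, which starts an oxidative pentose phosphate pathway inside the endoplasmic reticulum, fell by 0.48 (adjusted p = 0.0126), and PRPSAP1, a partner of the enzyme that makes PRPP, fell by 0.41 (0.0243). The PRPP synthetases PRPS1 (0.19) and PRPS2 (0.09), which use the ribose phosphate that RPIA makes, did not pass (0.332 and 0.714, named after their values were seen). None of the 12 passed in shTSC2-adapted against control or against shTSC2, where 0.261% and 12.5% of all genes did.

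Of 28 genes of pyrimidine salvage and interconversion, 3 rose and 2 fell in shTSC2 relative to control, around a median of -0.01. Of all genes, 20.8% passed there. UPP1, which splits uridine, rose by 1.18 (limma adjusted p = 0.00838), and the UMP/CMP kinase CMPK1 rose by 0.49 (0.014). CDA, which deaminates cytidine, was at 7.52 and 6.36 in shTSC2, against 8.33 and 8.46 in control, and fell by 1.46 (0.0182). The CDA difference was -2.04 without shTSC2 1 and -0.88 without shTSC2 2. TK2, the mitochondrial thymidine kinase, fell by 0.61 (0.00429). In shTSC2-adapted relative to shTSC2, 3 of the 28 were higher and 1 lower, where 12.5% of all genes passed. Higher were CDA (1.48, 0.0259), the ribonucleotide reductase subunit RRM1 (0.44, 0.034) and TK2 (0.44, 0.0245). The uridine kinase-like UCKL1 was lower (-0.52, 0.0154). The TK2 call between the knockdown groups ended without either control array or either shTSC2-adapted array. For CDA this difference was 2.06 without shTSC2 1 and 0.90 without shTSC2 2. None of the 28 passed in shTSC2-adapted against control, where 0.261% of all genes did. UPP1 was at 8.10 and 7.69 in shTSC2-adapted, against 7.09 and 6.88 in control (0.91, SE 0.22, limma adjusted p = 0.141). Its difference from shTSC2 was -0.28 (adjusted p = 0.47), while CDA differed from control by 0.03 (SE 0.32).

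Of the 3 enzymes of pyrimidine breakdown, DPYD, which catalyses the initial and rate-limiting step, was at 5.67 and 5.84 in shTSC2-adapted, 6.45 and 6.46 in shTSC2, and 6.46 and 6.50 in control. It was lower in shTSC2-adapted than in shTSC2 (-0.70, limma adjusted p = 0.00609) and than in control (-0.72, adjusted p = 0.0488), where 12.5% and 0.261% of all genes passed. The other 2 enzymes passed in no comparison. Without control 1 or control 2 the call against control ended (0.48 and 0.52), as it did without shTSC2-adapted 1 (0.243) or shTSC2-adapted 2 (0.112), with the array number as a replicate block (0.0903), with quantile normalization (0.0541), with every probe set tested (0.0561) and with an intensity trend in the prior variance (0.0532). Its range over the alternatives was 0.0252 to 0.52.

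Of 12 genes of purine synthesis, 3 rose and 1 fell in shTSC2 relative to control, with a median of 0.09, where 20.8% of all genes passed. IMPDH2, which commits IMP to guanine nucleotides, rose by 0.70 (limma adjusted p = 0.00236) and ATIC, which completes IMP, by 0.57 (0.0217), while GMPS, the next step after IMPDH2, fell by 0.38 (0.0266). In shTSC2-adapted relative to shTSC2, 2 of the 12 were higher and 1 lower, where 12.5% of all genes passed: IMPDH2 was lower (-0.80, 0.0035), and GMPS (0.45, 0.0224) and ADSS1, an adenylosuccinate synthase (0.71, 0.00817), were higher. Of 7 other NADPH-producing enzymes, ME1, the cytosolic malic enzyme, fell in shTSC2 relative to control (-0.41, 0.0286). The ME1 call ended with the gene length trend removed (-0.23, 0.163), with quantile normalization (0.102) and with median centring (0.0585). Against shTSC2, shTSC2-adapted cells had more ME1 (0.91, 0.00321) and more IDH1, the cytosolic isocitrate dehydrogenase (0.83, 0.0428). None of these 12 and 7 genes passed in shTSC2-adapted against control, where 0.261% of all genes did.

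Many of these single calls ended when an array was left out or with other processing. With 1 array left in a group, a call can end while its difference stays. In shTSC2 against control, RBKS differed by 0.42 without control 1 and 0.43 without control 2, against 0.425 with all arrays. ATIC moved further, to 0.415 without control 2 against 0.57. In shTSC2 against control, leaving out control 1 or control 2 ended those of RBKS (adjusted p = 0.176 each), H6PD (0.0644 and 0.129), PRPSAP1 (0.163 and 0.138), CMPK1 (0.0669 and 0.137), CDA (0.0966 and 0.126), GMPS (0.163 and 0.162) and ME1 (0.202 and 0.117), and leaving out control 2 those of UPP1 (0.0851), TK2 (0.063) and ATIC (0.173). Those of PRPSAP1 (0.0518), GMPS (0.0683) and ME1 (0.0656) also ended without shTSC2 1, and those of RBKS (0.0857) and ATIC (0.0696) without shTSC2 2. In shTSC2-adapted against shTSC2, those of CDA, RRM1, GMPS and IDH1 ended without either control (0.0677 to 0.0921) or without shTSC2-adapted 1 (0.084 to 0.209), those of CDA (0.0883), RRM1 (0.144) and GMPS (0.0774) without shTSC2-adapted 2, those of RRM1 (0.0804) and IDH1 (0.126) without shTSC2 2, that of GMPS without shTSC2 1 (0.0523), and that of UCKL1 without shTSC2-adapted 1 (0.0866). In shTSC2 against control, processing ended the calls of GMPS (quantile normalization 0.0834, median centring 0.0617, length trend removed 0.0772), PRPSAP1 (quantile normalization 0.0736) and RBKS (centring on all probe sets 0.0632), and UCKL1 passed with quantile normalization (0.0445). In shTSC2-adapted against shTSC2, processing ended the calls of RRM1 (quantile normalization 0.051, replicate block 0.0554), TK2 (quantile normalization 0.0568) and IDH1 (quantile normalization 0.0622). With only the 4 arrays compared, those of CDA (0.0677), TK2 (0.0693), RRM1 (0.0814), GMPS (0.0706) and IDH1 (0.0921) ended. Leaving out either control array was this same test, so those endings are not further ones. PRPSAP1 passed there without dim genes (0.0468), and IDH1 passed against control with centring on all probe sets (0.0484). IMPDH2 passed under every alternative in both comparisons (highest adjusted p 0.0411 and 0.0273), as did DPYD (0.0428), ADSS1 (0.0476) and ME1 (0.0285) in shTSC2-adapted against shTSC2.

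**Figure D4:**
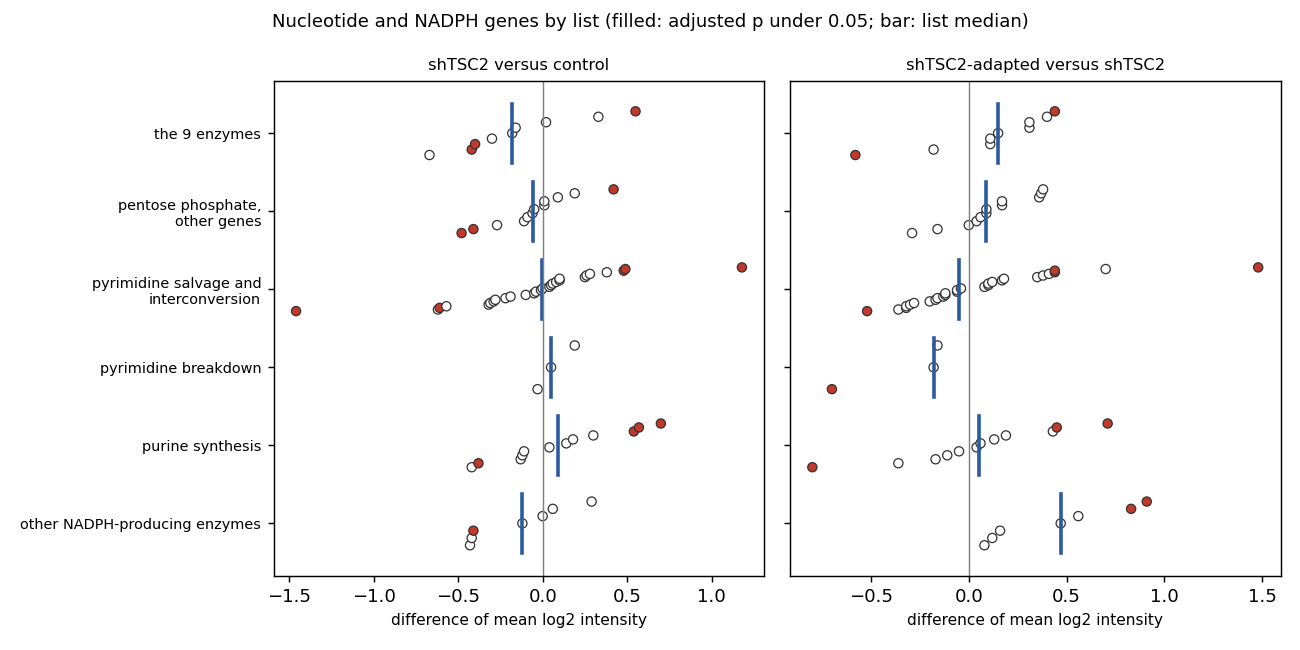
Differences of mean log2 intensity (x axis) of the 9 enzymes and of the measured genes of 5 related lists (rows), for shTSC2 versus control (left) and shTSC2-adapted versus shTSC2 (right), with filled points where the limma adjusted p is under 0.05 and a bar at each list's median. The points at the far ends are CDA (-1.46 left, 1.48 right) and UPP1 (1.18, left).

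The genes whose pattern over the 6 arrays was most like that of RPE, the enzyme with the largest shTSC2 minus control difference in the values as deposited, were GNE, PLAG1 and RNF144B. They were chosen by the Euclidean distance between log2 values centred on each gene's mean, which was 0.205, 0.234 and 0.264. GNE was at 8.29 and 7.73 in shTSC2-adapted, 7.85 and 7.38 in shTSC2, and 8.13 and 8.26 in control. Its low second shTSC2-adapted array, as in RPE, follows from how GNE was chosen. With quantile normalization the RPIA difference, and without shTSC2 2 the PGLS difference, was larger in size than that of RPE. With median centring RPIA (0.61) was also slightly larger in size than RPE (-0.605). The 6 arrays form 3 groups, and the likeness is a description.

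Gene length moved with the first comparison. Over 18389 genes with a known span, which are not independent replicates, the Spearman correlation of the shTSC2 minus control difference with span was -0.33, and 0.32 for shTSC2-adapted minus shTSC2. RPIA spans 59.3 kb, the longest of the 9, and its difference was 0.62 with the length trend removed. TKT (31.3 kb) stood at -0.39 and TALDO1 (17.5 kb) at -0.47 with the trend removed, and all 3 still passed (limma adjusted p = 0.0173, 0.0308 and 0.0234).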

How the data were processed

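Total RNA of Du145 cells was labelled with biotin and hybridised to 6 arrays. For each array the authors deposited linear intensity values by probe set, made with RMA, per the submitters' processing notes. No version of RMA, probe definition or genome build was found in the labels. RMA as usually run includes quantile normalization, but the array medians of the deposited values differed (log2 5.86 to 5.98 over all probe sets). Taking log2 of the deposited intensities gave numbers of 2 decimals to within 6.99e-10, and these rounded numbers were analysed. Arrays have no read depth, and their number limits the precision.

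Of 33297 probe sets, 19460 had 1 gene symbol in the platform annotation, 1754 had several and 12083 are unnamed here; 19429 identifiers matched the GRCh38.p14 gene table. The probe set with the highest mean was kept per gene (18417 genes). One linear model over all 6 arrays was fitted in R 4.3.3 using limma 3.58.1, with 3 residual degrees of freedom, two-sided p-values adjusted by Benjamini-Hochberg over all genes, and a threshold of 0.05. The members, lists, motifs and rule for named genes were chosen with earlier results of these data known. Named were the 9 enzymes, TSC2, the 2 largest rises and 2 largest falls that passed per list and comparison, and the 3 genes most like the enzyme with the largest change. Tested on simulated data for shTSC2 versus control (18417 genes, 200 changed, 5 draws), the model called 10.4% of genes shifted by 0.5 log2 units, 85% of those shifted by 1 and 99.6% of those shifted by 2, and 4.11% of its calls were false. The adjusted threshold depends on how many genes change, so these shares hold for 200 changed genes only. Alternatives were quantile normalization, centring on the median, leaving out dim genes, testing every probe set, a replicate block, only the arrays compared, removal of the gene length trend, an intensity trend in the variance, and leaving out each array. Leaving out an array of a compared group leaves 1 array there, so a call can end with its difference unchanged. Leaving out an array of the group not compared gives the same test as only the arrays compared. Centring on the median of all probe sets was added after the data were seen.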

Additional observations from a re-analysis of the deposited data

How the results depend on the processing

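Of 402 values of the 9 enzymes under alternatives, 353 kept direction and side of the threshold, 32 lost a call, 6 gained one and 11 changed sign. None of those 11 had passed. Leaving out an array of the group not compared repeats the test of only the 4 arrays compared, so some of the 402 values are repeats. Whether same-numbered arrays shared a culture or day is not stated. Deviations of same-numbered arrays from their group means correlated at -0.10, -0.19 and 0.21, which cannot settle it. With the replicate block the count of enzymes called was 2 in shTSC2 versus control, against 3, and 1 in shTSC2-adapted versus shTSC2, against 2. For shTSC2 versus control, quantile normalization left 1 enzyme; leaving out an array gave 0 to 3 enzymes and 1175 to 3895 genes, against 3833. For shTSC2-adapted versus shTSC2, quantile normalization left 1 enzyme and the 4 arrays compared left 0 enzymes and 1113 genes; leaving out an array gave 0 to 3 enzymes and 837 to 2600 genes, against 2300. For shTSC2-adapted versus control the 48 genes became 90 with median centring, 199 with centring on all probe sets, 121 without dim genes, 1 with the replicate block, 248 with the 4 arrays compared and 0 to 248 without an array. With centring on all probe sets, 0 enzymes rose and 3 fell in shTSC2 versus control (RPE, TKT and TALDO1). The cause of these shifts was not tested.

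In shTSC2 versus control, signs changed for UMPS (-0.045 with centring on all probe sets, -0.033 with the length trend removed, -0.075 to 0.105 without an array), DPYD (0.034 with quantile normalization, 0.035 with median centring, 0.077 with the length trend removed) and IDH1 (-0.18 to 0.31 without an array). In shTSC2-adapted versus control, signs changed for RPIA (0.003 with quantile normalization, -0.14 to 0.08 without an array), RPE (-0.715 to 0.005 without an array), TKT (-0.01 with centring on all probe sets), TALDO1 (-0.23 to 0.01 without an array), PRPSAP1 (-0.13 to 0.04 without an array) and CDA (-0.015 with centring on all probe sets, -0.095 to 0.155 without an array). In shTSC2-adapted versus shTSC2, signs changed for PGLS (-0.06 to 0.36 without an array), RPE (-0.05 to 0.67 without an array) and UPP1 (-0.575 to 0.025 without an array). The cause of these sign changes was not tested. DHODH and the dimmer listed genes have no value without dim genes. With 2 arrays per group every call rests on few values.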
